A study of Mus musculus with 29 samples.

Results

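DEAD and DEAH box RNA helicases were followed through the 2 Myc systems of this mouse study. They were taken as every gene whose symbol starts with Ddx or Dhx and a digit, leaving out Ddx58 and Dhx58. That gave 51 of the 21819 genes listed for B cells and 52 of the 21675 listed for fibroblasts, 52 different genes in all. The extra fibroblast gene is Ddx39b, which the B cell files list under its older symbol Bat1a.

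DEAD and DEAH box proteins are named after an amino acid motif and use ATP to unwind RNA or to strip proteins from it. Many work in the nucleolus on the ribosomal RNA precursor, others drive the steps of the spliceosome, hand mRNA to the nuclear pore, or act in translation and mRNA decay. Myc is a transcription factor known for raising genes of ribosome assembly and growth.

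The study measured RNA in 29 libraries. B cells were enriched with B220 beads from spleens of C57BL/6 mice 6 to 8 weeks old, either wild type (WT_spleen, n = 4) or carrying the Eμ-myc transgene (Tg_spleen, n = 4), in which an immunoglobulin enhancer drives Myc in B cells. Tumours of transgenic C57BL/6 mice were pressed from lymph nodes and not purified further (Tg_lymphnode, n = 3), with no age in the labels. The fibroblasts were 3T9 cells from embryos of mixed strain with loxP-flanked c-myc alleles (c-myc flox/flox), all infected with MycER, a Myc fusion that 4-hydroxytamoxifen (OHT) activates. Total RNA was taken after ethanol (OHT_0h) and after 4, 8 and 16 h of 400 nM OHT (OHT_4h, OHT_8h, OHT_16h, n = 4 each), and for newly made RNA, cells were given 300 µM 4-thiouridine (4sU) over 10 min, with a single library each for 0 h and 4 h. Nothing in the labels says that libraries of a group came from separate animals or cultures, so p-values measure the spread between these libraries, which may be technical in whole or in part. For B cells it is not wholly technical. Each B cell group held libraries with the Y-linked gene Eif2s3y above 100 FPKM and libraries at 1.3 or below. No B cell group therefore came from 1 animal alone, but the number of animals is not known.

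Values are FPKM, fragments scaled by transcript length and library size, so levels of different genes are per length and can in principle be compared within a library, but the depth of a library is unknown. B cell and fibroblast values stand on different scales and were not compared. In the total RNA fibroblast libraries the scale was flat at its top: the 100th highest gene was 1.57 to 1.80 times the 1000th, against 4.27 to 7.52 times in B cell libraries. How this arose is not given in the sources used here, so levels of different genes in those libraries may not be in proportion to their RNA. Myc itself, counted from the files, was at 226 ± 34.7 FPKM in WT_spleen (SD, n = 4), 1556 ± 604 in Tg_spleen (n = 4) and 2020 ± 228 in Tg_lymphnode (n = 3), and in fibroblasts it fell with OHT from 24.3 ± 3.98 to 10.8 ± 2.84 at 4 h (SD, n = 4 each; log2 change −1.15, adjusted p = 0.000875, limma). Whether reads of the MycER fusion are part of it is not given in the sources used here.

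Tg_lymphnode replicate 3 goes against its B cell label. Ms4a1, which encodes a B cell surface protein, was at 137 FPKM there, against 2262 and 2935 in the other 2 tumours and 4091 to 9963 in the spleen cells, and Pax5, the B cell identity factor, was at 109.5, against 1268 or more in every other library. The 6 B cell markers summed to 1283 FPKM in replicate 3, to at most 15846 in the other tumours, to 32782 to 36795 in WT_spleen and to 19216 to 31268 in Tg_spleen. Replicate 3 held Cd4 at 9468 FPKM and Siglech, a marker of plasmacytoid dendritic cells, at 2655. The 6 markers listed for those cells summed to 2501 to 22063 FPKM in the tumours, with 22063 in replicate 3. They summed to 8376 to 11049 in WT_spleen and 5350 to 8179 in Tg_spleen. Bst2 (7426), Irf8 (5195) and Tcf4 (815) were also highest in replicate 3. Ly6d (5524) lay within the WT_spleen range there, and Spib (449) was below every other library. The 7 T cell markers summed to 377 to 17539 FPKM in the 3 tumours, 157 to 321 in WT_spleen and 31.6 to 149 in Tg_spleen, and all 7 were detected in each group. The sum of 17539 was that of replicate 3 and came almost wholly from Cd4 and Cd8b1 (7615 FPKM). Cd3d, Cd3e and Cd3g were at 91.5, 62.8 and 205 FPKM there, below 193, 143 and 248 in replicate 2. Cd8a (86.4 against 98.0) and Trat1 (10.3 against 29.2) were also lower than in replicate 2. WT_spleen and Tg_spleen did not overlap either in the summed NK cell markers (6 genes, 422 to 760 FPKM against 51.0 to 381), the stroma and endothelium markers (8 genes, 1037 to 1205 against 489 to 819) or the fibroblast markers (7 genes, 1216 to 1850.1 against 2219 to 5303). Pecam1 made up most of the stroma and endothelium sum (1011 to 1183 FPKM against 470 to 802). Vim made up most of the fibroblast sum (1177 to 1808 FPKM against 2178 to 5260). Col1a1, Col1a2, Col3a1, Dcn and Pdgfrb were at most 7.1 FPKM in every spleen library, so these sums do not measure fibroblast or stroma content there. The tumours summed to 127 to 212 FPKM for the NK cell markers, 1088 to 1489 for stroma and endothelium and 2652 to 4401 for fibroblasts. Within these sums Pecam1 was at 349 to 814 FPKM, below WT_spleen. Col1a1 was at 87.2 to 133 FPKM in the tumours, Col1a2 at 103 to 135, Col3a1 at 80.6 to 243 and Dcn at 102 to 123, all above every spleen library. The 7 markers of salivary gland and pancreas summed to 2436 to 11331 FPKM in the 3 tumours and to at most 54.7 in the spleen cells. Division markers (7 genes, Mki67 among them) summed to 754 to 981 FPKM in WT_spleen, 2631 to 10298 in Tg_spleen and 5179 to 8039 in Tg_lymphnode, and the part of these markers in the results below was not tested. In these bulk libraries fewer cells of a type and less RNA per cell cannot be told apart.

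The promoters of the members that rose most are shown first, because Myc binds DNA at the E-box CACGTG. They are those of the 4 members with the largest rise in Tg_spleen among those called higher in both Tg_spleen and Tg_lymphnode for which RefSeq's table (GRCm38.p6) has an entry, a choice made after their values were seen. Each line gives the 250 bases before the transcript start, 5′ to 3′, with the E-box in capitals.
Ddx1 (chr12:13249175-13249424, minus strand): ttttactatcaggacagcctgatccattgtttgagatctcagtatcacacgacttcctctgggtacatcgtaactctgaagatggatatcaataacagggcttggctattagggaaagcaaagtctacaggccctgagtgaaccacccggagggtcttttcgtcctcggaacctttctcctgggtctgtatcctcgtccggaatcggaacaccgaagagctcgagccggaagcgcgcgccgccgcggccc
Ddx27 (chr2:167015063-167015312, plus strand): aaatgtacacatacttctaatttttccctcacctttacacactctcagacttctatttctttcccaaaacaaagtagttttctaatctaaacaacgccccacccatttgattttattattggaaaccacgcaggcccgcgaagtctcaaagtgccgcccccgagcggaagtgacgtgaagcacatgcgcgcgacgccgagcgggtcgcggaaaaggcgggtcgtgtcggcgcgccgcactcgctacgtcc
Dhx33 (chr11:71004433-71004682, minus strand): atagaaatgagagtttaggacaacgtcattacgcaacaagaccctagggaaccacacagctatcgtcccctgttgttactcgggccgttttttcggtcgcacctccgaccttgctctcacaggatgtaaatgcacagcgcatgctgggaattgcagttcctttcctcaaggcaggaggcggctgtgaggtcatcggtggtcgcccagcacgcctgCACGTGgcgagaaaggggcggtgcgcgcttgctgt
Ddx56 (chr11:6267730-6267979, minus strand): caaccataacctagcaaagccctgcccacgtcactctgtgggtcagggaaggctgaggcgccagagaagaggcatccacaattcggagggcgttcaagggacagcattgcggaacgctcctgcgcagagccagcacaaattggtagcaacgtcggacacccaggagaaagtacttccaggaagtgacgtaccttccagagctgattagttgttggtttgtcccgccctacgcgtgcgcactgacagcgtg
Dhx33 alone of these had a CACGTG, whose first base lies 35 bases before the transcript start. The motif was searched from 250 bases before to 50 after each start, and being its own reverse complement it covers both strands. It was present for 7 of the 47 members with an entry (14.9%), for 1 of the 16 nucleolar ribosome assembly members (Dhx33), for 8.09% of all 27025 genes in the table and for 11.2% of the 9973 that reached 1 FPKM in at least 4 B cell libraries. The other members with it were Ddx4, Ddx25, Ddx42, Ddx5, Dhx35 and Dhx40. The variant CACGCG, on either strand, was present for 13 members (27.7%), among them 6 of the 16 nucleolar ones (37.5%), and for 18.6% of those 9973 genes. A further variant searched, CATGTG on either strand, was present for 4 members (8.51%), 2 of the 16 nucleolar ones (12.5%) and 10.8% of those 9973 genes. The windows of Ddx1, Ddx27 and Dhx33 have no CACGCG, and that of Ddx56 has 1. Those of Ddx27 and Ddx56 have 1 CATGTG each, and those of Ddx1 and Dhx33 have none. Among the 8 members with an entry called higher in both groups, 1 had CACGTG (12.5%), 3 CACGCG (37.5%) and 2 CATGTG (25.0%). The shares were 15.4%, 25.6% and 5.13% of the 39 other members.

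In wild-type B cells the most abundant members were the paired coactivators of transcription and RNA processing, Ddx5 and Ddx17. Ddx5 averaged 2902 ± 136 FPKM and Ddx17 2240 ± 191 (SD, n = 4), with no overlap between their libraries. They were followed by Ddx6, which represses translation and feeds mRNA to decapping (1342), Dhx15, which takes spent spliceosomes apart (1182), and Dhx9, which unwinds double-stranded RNA in the nucleus (1150), and by Ddx3x, a translation helicase (995). Neighbours among these last 4 overlapped between libraries. At the other end stood 3 germ line helicases, Ddx25 at 20.4 FPKM, Ddx43 at 1.98 and Ddx4 at 1.43. In Tg_lymphnode the order of the leading members differed: Dhx15 averaged 1637 FPKM, Ddx5 1590, Dhx9 1550 and Ddx17 1350, and each overlapped the next.

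In splenic B cells of Eμ-myc mice, helicases of ribosome assembly stood out among the members that rose. Of the 51 members, 12 were higher in Tg_spleen than in WT_spleen and 4 were lower at an adjusted p under 0.05 in limma, which is 23.5% and 7.84%, beside 15.7% and 12.2% of all 14021 genes tested. The groups did not overlap for 21 of the 51 members, beside 31.6% of all genes. The median log2 change of the members was 0.23, beside −0.05 for all genes. By role, 7 of 16 nucleolar ribosome assembly members rose and none fell (median 0.41, all 16 above 0), 2 of 3 mRNA export members and 2 of 5 members of transcription, RNA processing and RNP assembly rose, and 1 of 9 spliceosome members did. Under quantile normalization the members split 9 higher and 7 lower, beside 14.5% and 14.3% of all genes, and of the nucleolar ones 5 were higher, none lower and 15 above 0. Ddx5 and Ddx17 were among the members lower under it (−0.64 and −0.67).

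**Figure D1:**
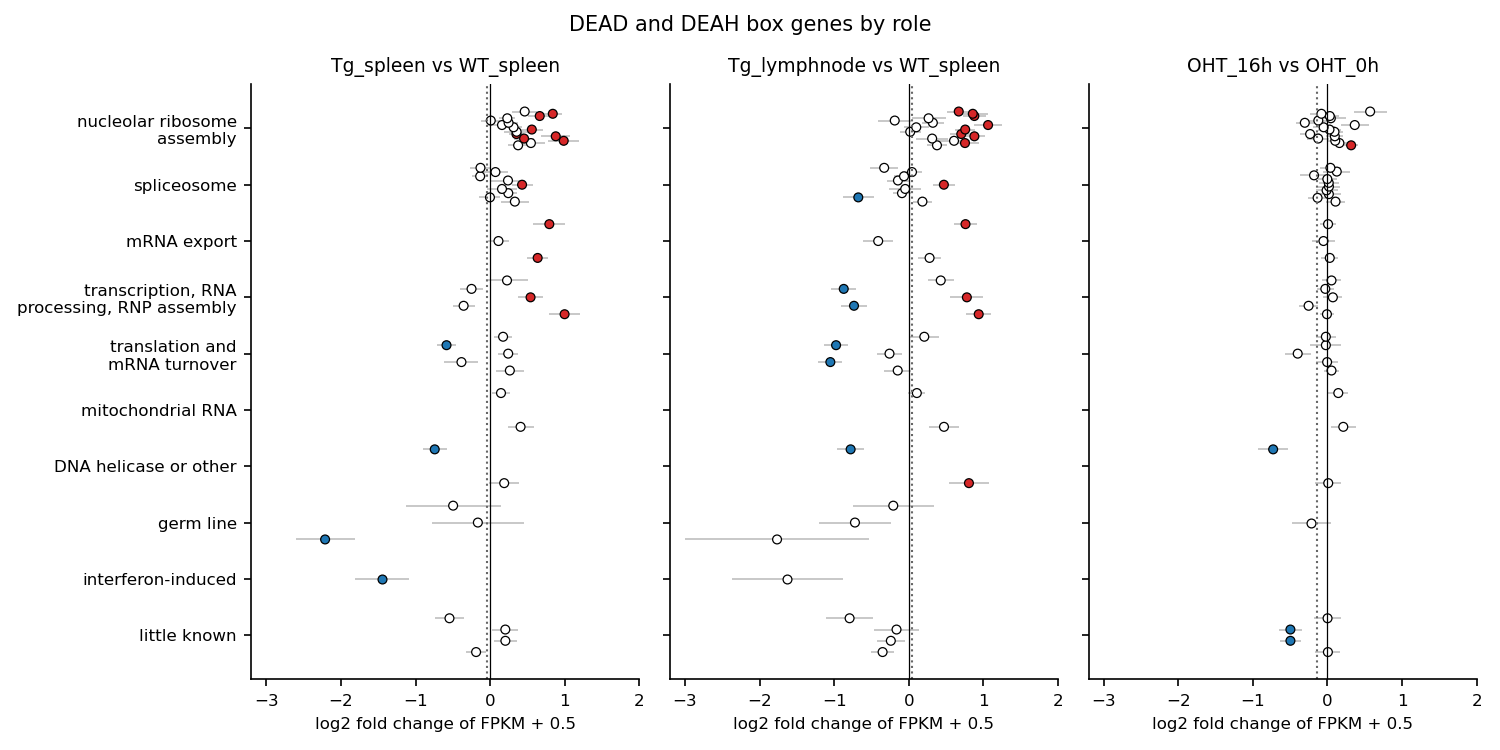
Each point is 1 member, placed by role, with its log2 fold change of FPKM + 0.5 on the horizontal axis and bars of 1 standard error; red points were called higher, blue points lower and white points neither, the dotted line is the median of all genes, and Ddx3y is left out for its sex-linked spread. Nucleolar members lie to the right of 0 in the Tg_spleen panel (7 of 16 called higher) and none of them is blue in any panel, whereas only Ddx10 is red in the OHT_16h panel.

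Ddx1, part of the tRNA ligase complex, was at 322, 306, 306 and 405 FPKM in the WT_spleen libraries, at 478, 575, 892 and 793 in Tg_spleen and at 636, 742 and 547 in Tg_lymphnode. Every transgenic library lay above every wild-type one. The log2 change was 1.00 ± 0.20 (SE) in Tg_spleen (adjusted p = 0.00866, limma) and 0.94 ± 0.17 in Tg_lymphnode (adjusted p = 0.00372). The catalytic ligase partner of Ddx1, listed as D10Wsu52e and now called Rtcb, was also higher in Tg_spleen (log2 change 0.69 ± 0.16, adjusted p = 0.0127, limma).

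Ddx21, which couples ribosomal RNA transcription to processing in the nucleolus, was at 569, 465, 577 and 609.8 FPKM in WT_spleen and at 873, 941, 1675 and 1042 in Tg_spleen. These groups were well apart, by 0.99 ± 0.21 on the log2 scale (adjusted p = 0.00961, limma). In Tg_lymphnode its 3 values, 1173, 646 and 786 FPKM, were also all above WT_spleen, but the log2 change of 0.61 ± 0.22 missed the threshold (adjusted p = 0.0608, limma). Ddx27, needed to form the end of a ribosomal RNA precursor, was at 319.7, 296, 308 and 339.6 FPKM in WT_spleen, 434, 496, 834 and 632 in Tg_spleen and 639.6, 635 and 482 in Tg_lymphnode. It changed by 0.88 in both comparisons (SE 0.19 and 0.15, adjusted p = 0.011 and 0.00295, limma), with no overlap in either.

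Dhx33, which acts in ribosomal DNA transcription, was close to even across wild-type libraries, at 113, 115, 119.6 and 125 FPKM. It was at 184, 198, 258 and 213 FPKM in Tg_spleen and at 214, 287 and 160.2 in Tg_lymphnode, above WT_spleen throughout. The log2 changes were 0.84 ± 0.13 (adjusted p = 0.00351, limma) and 0.86 ± 0.20 (adjusted p = 0.0113). Ddx56, a nucleolar helicase of the large ribosomal subunit, was at 187, 187, 209 and 239.7 FPKM in WT_spleen, 263, 284, 368 and 402 in Tg_spleen and 349, 447 and 342 in Tg_lymphnode. Its log2 changes were 0.66 ± 0.16 and 0.88 ± 0.16 (adjusted p = 0.0165 and 0.00385, limma).

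Ddx39, an mRNA export helicase also known as Ddx39a, was at 539, 602, 621 and 646 FPKM in WT_spleen and at 773, 805, 1403 and 1344 in Tg_spleen. The 4 Tg_spleen libraries formed a lower and a higher pair, all above WT_spleen, and the log2 change was 0.79 ± 0.22 (adjusted p = 0.0239, limma). In Tg_lymphnode its level was 1074, 1122 and 873 FPKM and its change 0.76 ± 0.15 (adjusted p = 0.00657, limma). The near relative Ddx39b, a splicing and export helicase listed as Bat1a, had a log2 change of 0.47 ± 0.20 in Tg_spleen and 0.20 ± 0.21 in Tg_lymphnode (adjusted p = 0.111 and 0.477, limma). The remaining members higher in Tg_spleen were Ddx19a of mRNA export (0.64), the nucleolar Ddx49 (0.56), Ddx24 (0.45) and Ddx31 (0.35), Ddx20 of the SMN complex that assembles small nuclear RNPs (0.54) and Dhx15 (0.43).

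The calls of Ddx1, Ddx21, Ddx27, Dhx33 and Ddx19a held when any 1 of the 8 libraries was left out. The call of Ddx39 was lost without WT_spleen replicate 1, 3 or 4 or Tg_spleen replicate 5, that of Ddx49 without WT_spleen replicate 1 or 4 and that of Ddx56 without WT_spleen replicate 1. Those of Dhx15 and Ddx31 were lost without any 1 library other than Tg_spleen replicate 2. Ddx24 held only without Tg_spleen replicate 2 or 3, and Ddx20 only without WT_spleen replicate 6 or Tg_spleen replicate 2.

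**Figure D2:**
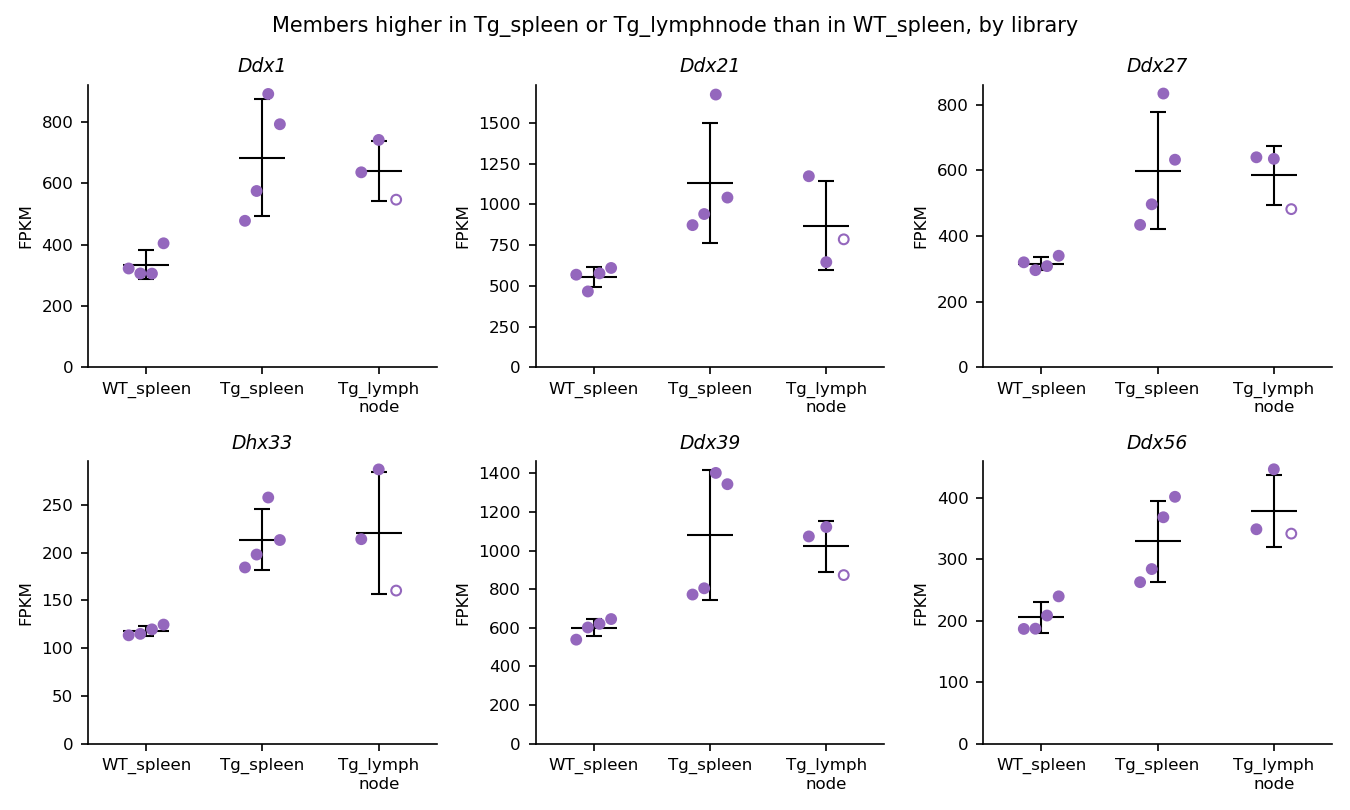
FPKM of 6 members in each B cell library (points), with the group mean and 1 SD as bars; the open point is Tg_lymphnode replicate 3, which is low in B cell markers. For each of the 6 genes all Tg_spleen and Tg_lymphnode points lie above all WT_spleen points.

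The 4 Tg_spleen libraries fall into pairs that differ in several ways at once. Replicates 4 and 5 had Eif2s3y, a Y-linked gene, at 292 and 489.9 FPKM, against at most 1.0 in replicates 2 and 3, and they had the lower Rpph1, an abundant noncoding RNA that takes a large share of these libraries. Replicates 4 and 5 also had more Myc, at 2408 and 1525 FPKM against 1017 and 1275 in replicates 2 and 3. Each of the 7 division markers was higher in them too, Top2a at 4114 and 2522 FPKM against 1028 and 1566. Sex, Rpph1 level, Myc level and division markers therefore cannot be told apart in this group. Within the libraries with high Rpph1 (2 against 2) the log2 change of Ddx1 was 0.74, of Ddx27 0.59 and of Ddx39 0.47, and within those with low Rpph1 it was 1.26 for Ddx1, 1.17 for Ddx27 and 1.12 for Ddx39. With high Rpph1, both WT_spleen libraries (replicates 1 and 3) had Eif2s3y above 100 FPKM and neither Tg_spleen library did. Genotype and sex therefore cannot be told apart there. With low Rpph1, only WT_spleen replicate 6 lacked Eif2s3y. The members called higher numbered 5 and 9 in these subsets, beside 6.39% and 13.7% of all genes, and those called lower 2 and 4, beside 3.65% and 9.63%. Ddx39 missed the threshold in the first (adjusted p = 0.0659, limma). With sex as a covariate 13 members were higher and 5 lower, beside 17.2% and 14.8% of all genes.

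Members lower in Tg_spleen were few and of mixed roles. Ddx25, a helicase best known from the testis, was at 20.2, 22.8, 20.2 and 18.5 FPKM in WT_spleen and at 6.6, 5.6, 1.4 and 4.5 in Tg_spleen. That is a log2 change of −2.21 ± 0.40 (adjusted p = 0.00528, limma), with no overlap. The tumours differed among themselves for this gene, at 18.0, 24.5 and 0.0 FPKM, with the 0 in replicate 3. Dhx34, a helicase of nonsense-mediated decay, was at 136, 169.7, 178 and 159 FPKM in WT_spleen, 102, 98.3, 119.5 and 107 in Tg_spleen and 90.7, 84.5 and 69.6 in Tg_lymphnode. Its 3 groups did not overlap, and it changed by −0.59 ± 0.13 in Tg_spleen (adjusted p = 0.0115, limma) and −0.97 ± 0.16 in Tg_lymphnode (adjusted p = 0.00292).

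Ddx26b, a relative of an Integrator complex subunit now called Ints6l, was at 182, 133, 184 and 185 FPKM in WT_spleen, 123, 105, 83.0 and 97.1 in Tg_spleen and 82.3, 102 and 114 in Tg_lymphnode. Both transgenic groups lay below WT_spleen, with changes of −0.74 ± 0.16 and −0.78 ± 0.18 on the log2 scale (adjusted p = 0.011 and 0.012, limma). Within the libraries with high Rpph1, where genotype and sex cannot be told apart, the change of Ddx26b was −0.45 and missed the threshold (adjusted p = 0.157, limma). Ddx60, an interferon-induced gene, was lower in Tg_spleen, with a log2 change of −1.45 ± 0.36 (adjusted p = 0.0178, limma), but its groups overlapped: its lowest wild-type library was at 55.5 FPKM and its highest Tg_spleen library at 62.1. The call of Ddx60 was lost without WT_spleen replicate 1, 3 or 4 or Tg_spleen replicate 5, and those of Ddx25, Dhx34 and Ddx26b held without any 1 library.

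In the lymph node tumours the nucleolar role held the most risers, and abundant members were among those that fell. Of 51 members, 13 were higher and 6 lower in Tg_lymphnode than in WT_spleen (25.5% and 11.8%, beside 20.3% and 17.7% of all 14758 genes tested). Groups did not overlap for 24 members, beside 45.4% of all genes. The members' median log2 change was 0.04, close to 0.05 for all genes, and it was −0.01 without Tg_lymphnode replicate 1. Of 16 nucleolar members 8 rose (median 0.64) and none fell, whereas 2 of 6 members of translation and mRNA turnover fell and none rose. Without replicate 3 the counts were 15 higher and 7 lower, beside 22.9% and 21.1% of all genes, and with sex as a covariate they were 10 and 5, beside 16.6% and 14.3%. This comparison shares its wild-type libraries with the previous one.

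Ddx51, which frees a small nucleolar RNA from the ribosomal RNA precursor, rose the most in the tumours, from 93.5, 96.9, 108 and 86.2 FPKM in WT_spleen to 164, 191 and 259. Its Tg_spleen libraries, at 97.3, 103.6, 154 and 84.3 FPKM, overlapped the wild type. The log2 change was 1.06 ± 0.19 in Tg_lymphnode (adjusted p = 0.00351, limma) and 0.16 ± 0.19 in Tg_spleen (adjusted p = 0.548). Set directly against Tg_spleen, the tumours had more Ddx51 by 0.90 ± 0.26, which did not pass (adjusted p = 0.0806, limma). The other members higher in Tg_lymphnode were Ddx49 (0.76), Ddx18 (0.75), Ddx31 (0.70) and Dhx37 (0.67) of the nucleolus, Ddx11, a DNA helicase of sister chromatid cohesion (0.81), Ddx20 (0.78) and Dhx15 (0.47). The calls of Ddx11, Ddx20 and Dhx15 were lost without WT_spleen replicate 1 or 3 or Tg_lymphnode replicate 1 or 2, that of Dhx15 also without WT_spleen replicate 4 or 6, that of Ddx20 also without WT_spleen replicate 4 and that of Ddx11 also without WT_spleen replicate 6. That of Ddx18 was lost without WT_spleen replicate 1 or Tg_lymphnode replicate 2.

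Ddx6 fell from 1520.1, 1358, 1245 and 1246 FPKM in WT_spleen to 733, 599 and 611 in Tg_lymphnode. The 3 tumours were close together, and the log2 change was −1.05 ± 0.16 (adjusted p = 0.00186, limma). In Tg_spleen 3 libraries, at 1251, 1293 and 1081 FPKM, lay near the wild type and 1, at 629.5, lay with the tumours, and the change of −0.38 ± 0.23 was not called (adjusted p = 0.226, limma). Without replicate 3 the change of Ddx6 in Tg_lymphnode was −1.01 (adjusted p = 0.00196, limma).

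The related Ddx5 and Ddx17 both fell in the tumours. Ddx5 was at 2882, 2741, 2912 and 3074 FPKM in WT_spleen, 2579, 2492, 2628 and 2094 in Tg_spleen and 1589, 1747 and 1433 in Tg_lymphnode, so its 3 groups did not overlap. Its log2 change was −0.87 ± 0.17 in Tg_lymphnode (adjusted p = 0.00574, limma) and −0.25 ± 0.15 in Tg_spleen (adjusted p = 0.236). Ddx17 was at 2202, 2053, 2507 and 2199 FPKM in WT_spleen, 1967, 1687, 1684 and 1664 in Tg_spleen and 1241, 1261 and 1547 in Tg_lymphnode, again without overlap. It changed by −0.73 ± 0.18 in Tg_lymphnode (adjusted p = 0.0127, limma) and −0.36 ± 0.15 in Tg_spleen (adjusted p = 0.0929). Ddx41, a splicing helicase, was the remaining member lower in the tumours (−0.68 ± 0.21, adjusted p = 0.0338, limma), with its lowest value, 236 FPKM, in replicate 3. The call of Ddx41 was lost without any 1 of the WT_spleen libraries or Tg_lymphnode replicate 2.

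**Figure D3:**
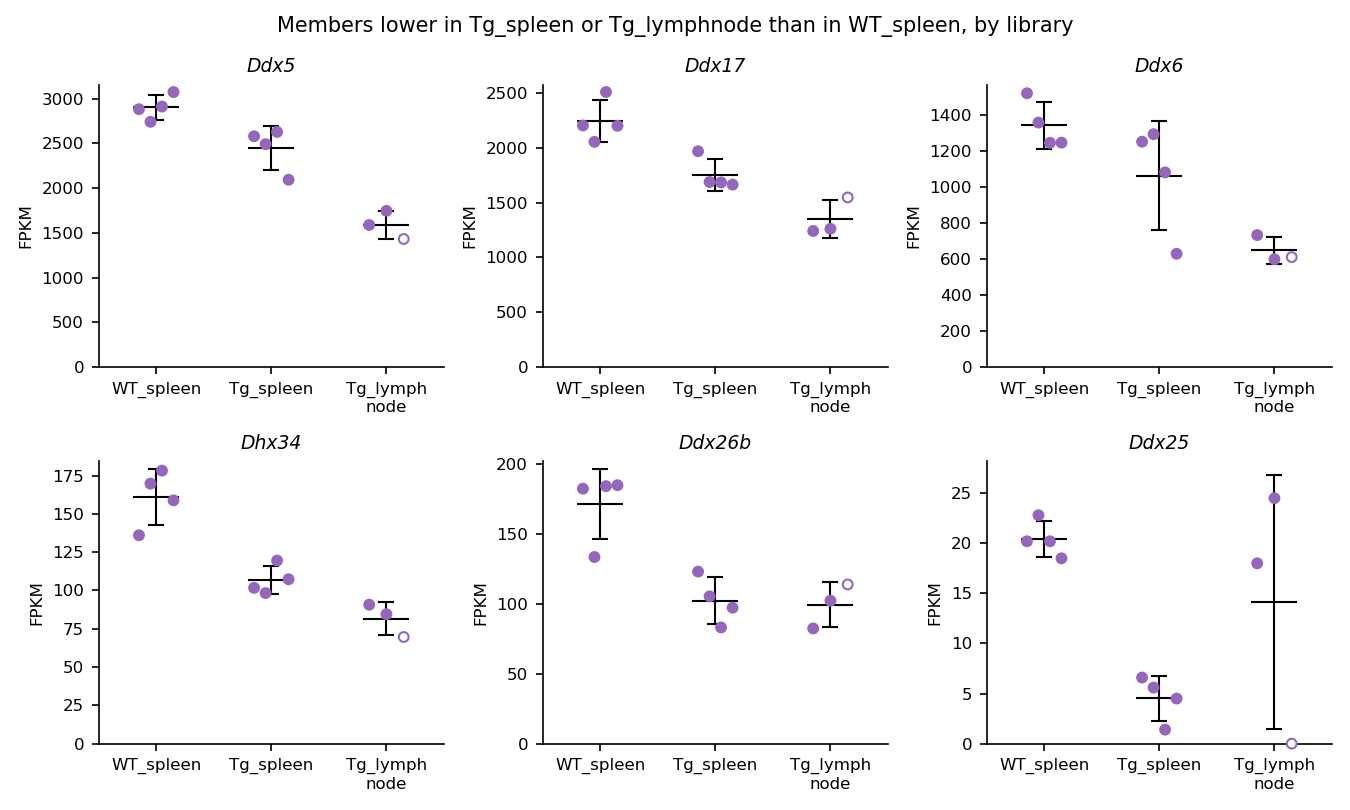
FPKM of 6 members in each B cell library (points), with the group mean and 1 SD as bars; the open point is Tg_lymphnode replicate 3. Ddx5, Ddx17 and Dhx34 step down from WT_spleen through Tg_spleen to Tg_lymphnode without overlap, Ddx6 is low in all 3 tumours and in 1 Tg_spleen library, and Ddx25 is low in Tg_spleen and spread in the tumours.

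Between the tumours and the splenic transgenic B cells no member was called in limma (0 higher and 0 lower, beside 3.56% and 2.39% of all genes), and 5 members had an unadjusted p under 0.05 (9.8%, beside 23.2% of all genes). Groups did not overlap for 9 of 51 members, beside 22.4% of all genes. With the 3 B cell groups in 1 fit, 1 member was higher and 2 were lower, beside 6.98% and 7.08% of all genes.

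Ddx3y, the Y-linked copy of the translation helicase Ddx3x, was present in some libraries of each group and at or near 0 in the others. It was at 443, 335 and 401 FPKM in 3 WT_spleen libraries and 0.0 in replicate 6, at 247 and 287 in Tg_spleen replicates 4 and 5 and at most 0.6 in replicates 2 and 3, and at 221 in Tg_lymphnode replicate 1 and 0.5 in the other 2. Libraries with Ddx3y were those with Eif2s3y above 100 FPKM. Ddx3x was at 1078, 1047, 855 and 999.5 FPKM in WT_spleen and at 1111, 1157, 1674 and 932 in Tg_spleen, a log2 change of 0.26 ± 0.19 that was not called (adjusted p = 0.317, limma). In Tg_lymphnode it was at 1057, 909.9 and 743 FPKM (log2 change −0.15 ± 0.18, adjusted p = 0.538, limma). Tg_lymphnode replicate 1 had both Ddx3y and Xist, the latter at 175 FPKM. How reads that match both copies, the related D1Pas1, or the pair Ddx19a and Ddx19b were counted is not given in the sources used here, so the split between such genes is uncertain.

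Partners and relatives of these helicases were set in lists of their own. The first counts are for Tg_spleen against WT_spleen, where 15.7% of all genes rose and 12.2% fell. Of 5 DEAD-box genes whose symbols the rule does not reach, 2 rose and none fell: the translation initiation helicase Eif4a1 (log2 change 1.07 ± 0.21, adjusted p = 0.00668, limma) and Eif4a3 of the exon junction complex (0.69 ± 0.19). Of 30 helicase cofactors 11 rose and none fell, among them Utp14a (0.77), which activates a DEAH box helicase in ribosome assembly, Gemin4 (0.76, and 1.13 in Tg_lymphnode), a partner of Ddx20, and Eif4b (0.77), which stimulates Eif4a1. Of 13 RNA helicases of other families 1 rose, Supv3l1 of mitochondria (0.74). In Tg_lymphnode against WT_spleen the same lists gave 1 of 5, 9 of 30 and 1 of 13 higher and 0, 3 and 1 lower, beside 20.3% and 17.7% of all genes. Eif4a1 rose there by 1.52 ± 0.19, and Pdcd4, an inhibitor of Eif4a1, fell by 1.46 on the log2 scale (SE 0.15, adjusted p = 0.000338, limma).

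In MycER fibroblasts the members that led in level were Ddx3x, Ddx1, Ddx21, Ddx39, Ddx18 and Ddx52. In OHT_0h they averaged 93.1, 85.4, 83.6, 81.2, 75.3 and 73.0 FPKM, and each overlapped the next. Of 52 members 12 were above 50% of the level of the 100th highest gene, Ddx3x at 88.2% of it and Ddx21 at 79.2%. On the log2 scale Ddx21 was 0.34 and Ddx1 0.31 below that gene, against 1.08 for Ddx10 and 2.08 for Ddx51. The part of this flat top in the results below was not tested. Ddx3y, Ddx4, Ddx43 and Ddx60 did not pass the filter of 1 FPKM in at least 4 libraries and were not tested.

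At 4 and 8 h of OHT no member was called in limma, 0 of 48 in either direction, beside 1.9% higher and 2.88% lower of all 12934 genes at 4 h and 1.21% and 0.982% at 8 h. Members with an unadjusted p under 0.05 numbered 8 (16.7%, beside 16.4% of all genes) and 6 (12.5%, beside 12.9%). With the replicate number as a block in the fit, 2 members were higher and 0 lower at 4 h (beside 3.15% and 5.39% of all genes), Ddx51 and Dhx37. At 8 h 1 was higher, Dhx37, and 1 lower (2.42% and 3.22%). Groups did not overlap for 3 members at 4 h, 4 at 8 h and 3 at 16 h, beside 12.5%, 13% and 13.8% of all genes. The members' median log2 change was 0.04 at both times, beside −0.04 and −0.06 for all genes. It was −0.02 at 4 h without OHT_4h replicate 3 and −0.01 at 8 h without OHT_8h replicate 2. At 16 h 1 of 48 members was higher and 3 were lower, beside 1.76% and 7.75% of all genes. Between 16 h and 4 h limma called no gene at all (0% in either direction), and 0 members and 1.69% of all genes had an unadjusted p under 0.05.

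Scaling changed these fibroblast counts. The median log2 change of all genes at 16 h was −0.14, and median ratio scaling moved it to 0.01, a shift of more than 0.1. Under that scaling 3 members were higher and none lower at 4 h (beside 5.05% and 6.29% of all genes), 3 higher and 1 lower at 8 h (4.21% and 3.4%), and 4 higher and 3 lower at 16 h (6.42% and 8.49%). The nucleolar Ddx51 and Dhx37 were higher at each time under it. Of the 16 nucleolar members 10, 9 and 10 lay above 0 at 4, 8 and 16 h as deposited and 14, 13 and 14 under median ratio scaling. Dhx8 of the spliceosome joined them at 4 h, the mitochondrial Dhx30 at 8 h, and Ddx10 and the mitochondrial Ddx28 at 16 h.

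Ddx10, a nucleolar helicase that releases a small nucleolar RNA during ribosomal RNA processing, was at 47.9, 48.1, 51.6 and 51.0 FPKM in OHT_0h and at 60.3, 60.5, 57.2 and 64.9 in OHT_4h. It stayed there, at 58.6, 59.4, 59.2 and 67.6 at 8 h and 58.6, 63.1, 59.6 and 66.9 at 16 h, with no treated library as low as an untreated one. The log2 changes were 0.29, 0.30 and 0.32 (SE 0.09 each, adjusted p = 0.0779, 0.0975 and 0.0304, limma), so only the last passed. In B cells Ddx10 changed by 0.37 ± 0.13 in Tg_spleen (adjusted p = 0.0542, limma), again with no overlap.

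Ddx51 was at 23.5, 25.8, 22.8 and 26.2 FPKM in OHT_0h and at 36.3, 31.5, 48.0 and 29.5 in OHT_4h, with no overlap, and changed by 0.53 ± 0.19 (adjusted p = 0.119, limma). Under median ratio scaling it changed by 0.58 (adjusted p = 0.00442, limma). Dhx37 was at 28.9, 33.8, 30.9 and 22.8 FPKM at 0 h and at 46.3, 43.8, 53.3 and 31.7 at 4 h, where replicate 4 overlapped the untreated libraries. It changed by 0.57 ± 0.22 (adjusted p = 0.173, limma) and, under median ratio scaling, by 0.62 (adjusted p = 0.0132).

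Ddx21, the second strongest riser of Tg_spleen, changed by 0.23 ± 0.10, 0.16 ± 0.10 and 0.10 ± 0.10 on the log2 scale at 4, 8 and 16 h (adjusted p = 0.251, 0.562 and 0.582, limma). Ddx1 changed by −0.06, 0.07 and −0.01, Ddx27 by 0.12, −0.00 and 0.10 and Dhx33 by −0.01, −0.02 and −0.08, and none of these passed. Their values bear on fibroblasts under OHT only, since B cell and fibroblast changes were not tested against each other.

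The members lower at 16 h were Ddx26b, Dhx40 and Dhx32, the last 2 of them DEAH box proteins of little-known role. Dhx40 was at 36.7, 40.1, 40.5 and 37.1 FPKM in OHT_0h and at 35.9, 20.95, 27.2 and 26.7 in OHT_16h, a log2 change of −0.50 ± 0.15 (adjusted p = 0.0412, limma) with no overlap. Dhx32 changed by −0.50 ± 0.15 (adjusted p = 0.0351, limma) with overlapping groups. Ddx26b was low in these cells, at 3.24, 3.39, 3.10 and 2.53 FPKM in OHT_0h and 2.19, 1.29, 1.94 and 1.30 in OHT_16h, and changed by −0.73 ± 0.21 (adjusted p = 0.0285, limma). Each of the 4 calls at 16 h was lost when single libraries were left out, OHT_0h replicate 2 and OHT_16h replicates 2 and 4 for all 4 genes. Those of Ddx10 and Ddx26b were lost also without OHT_0h replicate 1, those of Ddx10 and Dhx32 also without OHT_0h replicate 4, those of Ddx26b and Dhx32 also without OHT_0h replicate 3, and that of Dhx40 also without OHT_0h replicates 1, 3 or 4 or OHT_16h replicate 3. Ddx26b is the member called lower both in Tg_spleen and at 16 h, 1 of 3 (33.3%) of either list among the 47 members tested in both, beside 18.5% of the Tg_spleen list and 28.9% of the 16 h list over all genes. None of the 12 members higher in Tg_spleen was called higher at 16 h, where over all genes 2.28% of the Tg_spleen list was.

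**Figure D4:**
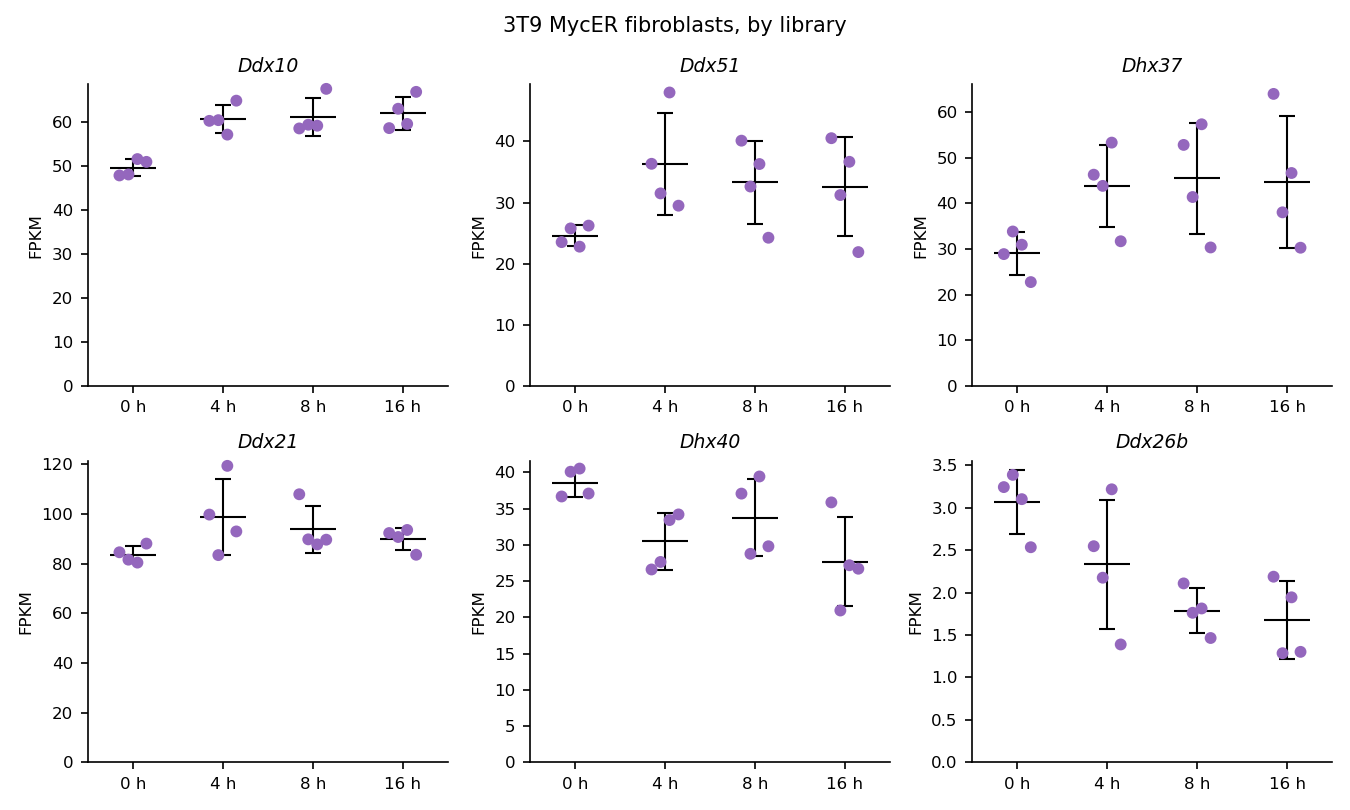
FPKM of 6 members in the total RNA fibroblast libraries against hours of OHT (4 points per time), with the mean and 1 SD as bars; each panel has its own scale from 0. All treated Ddx10 points lie above the untreated ones, Ddx51 and Dhx37 are higher on average with 1 library at 8 and 16 h near the untreated level, and Dhx40 and Ddx26b are lowest on average at 16 h.

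The 4sU RNA reports mostly newly made transcripts, and with 1 library per time it allows no test. Of 47 members at 1 FPKM or more, 2 were higher at 4 h by at least 0.5 on the log2 scale and 1 was lower, beside 6.86% and 5.33% of all 12375 genes. Ddx28, a mitochondrial ribosome assembly helicase, went from 4.14 to 7.21 FPKM (log2 ratio 0.73) and Dhx37 from 13.0 to 20.1 (0.61). Ddx26b went from 2.18 to 1.03 FPKM (−0.81). Below that limit Ddx10 went from 17.0 to 23.4 FPKM (0.45), Ddx20 from 10.6 to 14.1 (0.39) and Ddx18 from 25.5 to 31.7 (0.31), and Dhx40 from 9.20 to 6.93 (−0.38). The members' median log2 ratio was 0.11, that of the 16 nucleolar ones 0.17 and that of all genes 0.02.

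Members differed widely in their ratio of 4sU FPKM to total RNA FPKM. The scales are unlike: the 100th highest gene was at 52.9 FPKM in the 4sU library at 0 h and averaged 105.6 in OHT_0h. A ratio can therefore be read only beside those of other genes, and equal FPKM does not mean equal amounts of RNA. The part of the flat top of the total RNA scale in these ratios was not tested. The log2 ratio of 4sU FPKM at 0 h to the OHT_0h mean had a median of −1.24 over the 47 members, beside −1.16 for all genes at 1 FPKM or more in both, and 22 of 47 members lay above the latter. Ddx39b was highest at 0.64 (33.6 FPKM in 4sU RNA and 21.4 in total RNA), followed by Dhx9 at 0.45 and by Dhx15 at −0.04, Ddx24 at −0.10 and Ddx50 at −0.21. The paralogues Ddx5 and Ddx17 were close, at −0.25 and −0.27. Lowest were Ddx28 at −2.79 (4.14 FPKM in 4sU RNA and 31.7 in total RNA) and Dhx32 at −2.53. At 4 h the ratio was 0.80 for Ddx39b and −2.17 for Ddx28. Ddx3x, the leading member in total RNA, was at −1.07.

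**Figure D5:**
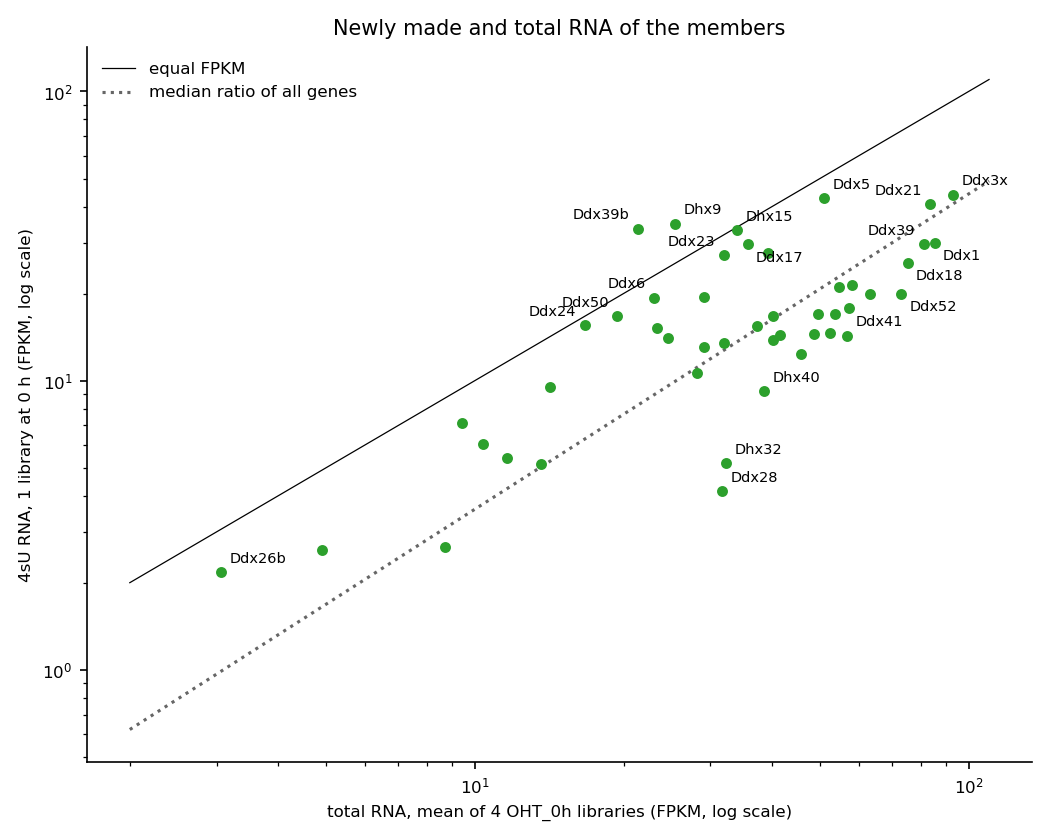
Each point is 1 of 47 members, with mean total RNA FPKM of the 4 OHT_0h libraries on the horizontal axis and FPKM of the single 4sU library at 0 h on the vertical axis, both on log scales. The solid line marks equal FPKM, which on these unlike scales does not mean equal amounts of RNA, and the dotted line marks the median ratio of all genes. Ddx39b and Dhx9 lie above the solid line, and Ddx28 and Dhx32 lie farthest below the dotted line.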

How the data were processed

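RNA of 11 B cell and tumour libraries and 18 fibroblast libraries was analysed from the authors' deposited tables of FPKM per gene, 1 table per library, with 1 decimal in B cells and 3 in fibroblasts. Libraries were made from RNA after removal of ribosomal RNA, per the labels' protocols. The submitters' processing notes name mm9, TopHat2 2.0.8, SAMtools and HTSeq 0.5.3p9. Annotation, strand, filters on reads and library depths are not given in the sources used here.

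Members were matched by symbol, and roles and lists were set by hand. The members and lists were chosen with earlier results of these data known. A gene entered a fit if the number of libraries at 1 FPKM or more reached the size of the smaller group, and was tested with limma 3.58.1 in R 4.3.3 on log2(FPKM + 0.5), a scale that understates changes of low genes (lmFit, then eBayes with trend and robust). The tests were two-sided and adjusted by the Benjamini-Hochberg method across every gene of the fit, and a gene counts as called below 0.05. B cell comparisons were fitted on the groups they compare, whereas all 16 fibroblast libraries of total RNA entered a single fit. The 4sU libraries gave ratios of FPKM + 0.5 with no test.

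Values in every library were given for up to 5 largest rises and falls per comparison among called members with no overlap between groups and 5 FPKM or more as the mean of the higher group, and for Ddx3x and Ddx3y. Ddx51, Dhx37 and Ddx21 in fibroblasts, and Ddx26b at 16 h and in 4sU RNA, were added after their values were seen. Promoters came from RefSeq's table for GRCm38.p6, with 47 of 52 members matched. As alternatives, results were recomputed with a pseudocount of 0.1 or 1, no filter or one of 5 FPKM, 2 other scalings, limma without trend, other groups in the fit, a replicate block, subsets by Rpph1 and leaving out each library. The covariate for sex, taken as Eif2s3y above 100 FPKM, was added after the data were seen. The fit was tested on simulated data. A gene of the B cell marker list is not reported here. Python 3.11.15 ran the remaining steps (pandas 2.3.3 for tables, Matplotlib 3.10.9 for figures, NumPy 2.4.6).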

Additional observations from a re-analysis of the deposited data

Results flagged for a closer look

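Among the 17 members given in detail, 102 groups of 4 libraries were checked for a library whose gap to the nearest other exceeds the critical share of the range, which chance does for about 1 in 20 groups, and 8 had one. In B cells, Ddx1 was at 404.6 FPKM in WT_spleen replicate 6, above 306 to 322 in the others. Ddx17 was at 1967 in Tg_spleen replicate 2, above 1664 to 1687. Ddx26b was at 133 in WT_spleen replicate 3, below 182 to 185. Dhx40 was at 444 in WT_spleen replicate 1, above 264 to 292.

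In fibroblasts, Ddx10 was at 67.6 FPKM in OHT_8h replicate 4, above 58.6 to 59.4, and Ddx21 at 108 in OHT_8h replicate 1, above 87.7 to 89.7. Ddx27 was at 49.6 in OHT_4h replicate 3, above 40.1 to 40.6, and Ddx39 at 101 in the same library, above 76.2 to 79.6.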

How the results depend on the processing

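Counts are given as members higher and members lower. In Tg_spleen vs WT_spleen, 12 and 4 became 9 and 7 under quantile normalization (beside 14.5% and 14.3% of all genes). They became 8 and 2 with all 3 B cell groups in 1 fit (10.6% and 5.26%) and 5 and 2 within libraries of high Rpph1 (6.39% and 3.65%). With 1 library left out they ranged over 5 to 15 and 3 to 5, beside 9.42% to 18.8% and 5.69% to 16.8% of all genes. The counts higher without WT_spleen replicates 1, 3 or 4 or Tg_spleen replicate 5 were 5, 7, 6 and 7. In the same order 10%, 11.3%, 9.42% and 10.3% of all genes were higher. In Tg_lymphnode vs WT_spleen, 13 and 6 ranged over 9 to 15 and 5 to 7 with 1 library left out, beside 16% to 22.9% and 13% to 21.1% of all genes. Tg_lymphnode vs Tg_spleen went from 0 and 0 to 1 and 2 with all 3 groups in 1 fit (6.98% and 7.08%), and the count higher was 0 to 1 with 1 library left out, the 1 without Tg_spleen replicate 4 (2.52% of all genes). The cause was not tested.

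In fibroblasts, OHT_4h vs OHT_0h went from 0 higher to 3 under median ratio scaling (beside 5.05% of all genes) and 3 under quantile normalization (6.63%). It went to 2 with only the groups compared (2.78%) and 2 without the libraries numbered 4 (3.16%). OHT_8h vs OHT_0h went from 0 and 0 to 3 and 1 under either scaling (4.21% and 3.4% by median ratio, 5.22% and 3.79% by quantile). It went to 0 and 1 with only the groups compared (1.78% and 2.24%) and 2 higher without the libraries numbered 4 (2.02%). OHT_16h vs OHT_0h went from 1 and 3 to 4 and 3 under either scaling (6.42% and 8.49% by median ratio, 7.72% and 8.14% by quantile). It went to 1 lower with no filter (3.86%), 0 and 1 with only the groups compared (1.27% and 6.09%) and 2 and 1 without the libraries numbered 4 (2.27% and 6.46%). Leaving out 1 library gave 0 to 1 and 0 to 3, beside 1.19% to 1.75% and 3.43% to 14.5% of all genes. No member was lower without OHT_0h replicate 2 or 3 or OHT_16h replicate 2 or 4.

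The labels tie no replicate number to an animal, culture or batch. The deviations of same-numbered libraries correlated over 0.1 in 3 of 4 pairs between OHT_0h and each of 4, 8 and 16 h and in 19 of 24 fibroblast pairs in all (0.02 to 0.65), but not in every pair of any comparison with OHT_0h, and in 1 of 6 B cell pairs (−0.02 to 0.13). Libraries that correlated best with their own number were 3 of 8 between OHT_0h and OHT_4h, 6 of 8 between OHT_0h and OHT_8h and 3 of 8 between OHT_0h and OHT_16h. They were 6 of 8 between OHT_4h and OHT_8h, 4 of 8 between OHT_4h and OHT_16h and 5 of 8 between OHT_8h and OHT_16h. The median correlation was 0.189 for same-numbered fibroblast pairs and −0.061 for the other fibroblast pairs, and the main fit has no term for the number. With the replicate block, the counts were 0 and 2 in Tg_spleen (beside 4.1% and 1.89% of all genes), 0 and 0 in Tg_lymphnode vs WT_spleen (where no gene was called), 2 and 0 at 4 h (3.15% and 5.39%), 1 and 1 at 8 h (2.42% and 3.22%) and 2 and 3 at 16 h (2.7% and 13.3%). The members higher under it at 4 h were Ddx51 and Dhx37, and at 8 h Dhx37. Groups of each B cell comparison share only 2 numbers. A library with an unshared number adds nothing to a blocked contrast, so the block leaves these comparisons little power by design. The lower B cell counts under the block therefore cannot show whether the results depend on the number.

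No called member changed sign under the alternatives run. Medians over the members near 0 did: that of OHT_16h vs OHT_0h went from 0.01 to −0.08 without OHT_16h replicate 1, to −0.02 without replicate 3 and to −0.00 without OHT_0h replicate 4, that of OHT_16h vs OHT_4h from −0.08 to 0.02 under median ratio scaling and 0.01 under quantile normalization, and those of Tg_lymphnode vs WT_spleen, OHT_4h and OHT_8h each without 1 library. FPKM without counts leaves the depth, and so the counting error, unknown.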
